A study of Mus musculus with 6 samples.

Results

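The CC chemokines described here are 10 secreted signalling proteins, Ccl2, Ccl3, Ccl4, Ccl5, Ccl6, Ccl7, Ccl8, Ccl9, Ccl12 and Ccl24, taken by gene name from a table of 53774 named lines. All 10 were present and all 10 passed the filter of a mean of at least 1 FPKM (fragments per kilobase of exon, scaled to the depth of the library) over the 6 libraries, which left 10920 lines to test. The RNA came from macrophages, which were gated by flow cytometry on CD45 and F4/80 and taken from injured mouse muscle at day 3 after barium chloride, a salt that kills myofibres. Every mouse had the genotype Cx3cr1-CreER, Manffl/fl, which carries a tamoxifen-inducible Cre recombinase driven by the Cx3cr1 promoter and a Manf gene that Cre can delete. Tamoxifen was given in one group to induce MANF deficiency, and oil was given in the other, with 3 libraries in each. The sources used here give neither age, sex nor strain background of the mice, nor whether each library came from 1 mouse, and the spread that p-values rest on may thus be technical.

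Chemokines are small proteins that leukocytes follow up a concentration gradient, and the CC family is named for a pair of neighbouring cysteines near its amino-terminal end. They act through receptors coupled to inhibitory G proteins. Ccl2, Ccl7 and Ccl12 are ligands of Ccr2, the receptor by which inflammatory monocytes leave the blood. Ccl3, Ccl4 and Ccl5 attract monocytes and T cells. Ccl6 and Ccl9 act on Ccr1, Ccl24 on Ccr3 of eosinophils, and mouse Ccl8 on Ccr8. In injured muscle, macrophages that derive from recruited monocytes clear debris and are themselves a source of these ligands.

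Of the 10 genes 9 lie on chromosome 11 (GRCm38) in 2 clusters. The first holds Ccl2 (chr11:82035571-82037453), Ccl7 (chr11:82045712-82047525), Ccl12 (chr11:82101845-82103400) and Ccl8 (chr11:82115185-82116799), all on the plus strand. The second starts 1409.0 kb further on and holds Ccl5 (chr11:83525778-83530518), Ccl9 (chr11:83572919-83578636), Ccl6 (chr11:83587882-83593087) and Ccl3 (chr11:83647844-83649355) on the minus strand and Ccl4 (chr11:83662584-83664683) on the plus strand. Ccl24 lies alone on chromosome 5 (chr5:135569937-135573049, minus strand). The coordinates are those of whole genes in the GENCODE annotation. No stretch of 50 bases in the annotated transcripts of Ccl2, Ccl3, Ccl4, Ccl5, Ccl6, Ccl7, Ccl8, Ccl12 or Ccl24 occurs in the transcripts of another gene on either strand, and in Ccl9 1.97% of such stretches do.

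Promoter sequences were at hand for Ccl3, Ccl6, Ccl8, Ccl9 and Ccl12, and not for Ccl2, Ccl4, Ccl5, Ccl7 and Ccl24. A pair of neighbours from each cluster is printed, because Ccl6 and Ccl9 both lay above oil in every tamoxifen library, while of Ccl12 and Ccl8 only Ccl12 did. Each sequence runs from 250 bases before to 50 bases after the RefSeq start of the gene (GRCm38.p6), 5′ to 3′ on the strand of the gene. Capitals mark, in each pair, the 50 bases that are most alike without gaps.
Ccl6, chr11:83593038-83593337, minus strand: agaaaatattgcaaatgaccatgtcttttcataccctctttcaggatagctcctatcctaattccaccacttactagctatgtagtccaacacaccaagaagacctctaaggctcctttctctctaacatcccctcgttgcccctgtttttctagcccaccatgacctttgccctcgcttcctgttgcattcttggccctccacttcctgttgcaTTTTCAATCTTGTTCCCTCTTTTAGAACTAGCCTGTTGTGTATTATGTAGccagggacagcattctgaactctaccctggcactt
Ccl9, chr11:83578587-83578886, minus strand: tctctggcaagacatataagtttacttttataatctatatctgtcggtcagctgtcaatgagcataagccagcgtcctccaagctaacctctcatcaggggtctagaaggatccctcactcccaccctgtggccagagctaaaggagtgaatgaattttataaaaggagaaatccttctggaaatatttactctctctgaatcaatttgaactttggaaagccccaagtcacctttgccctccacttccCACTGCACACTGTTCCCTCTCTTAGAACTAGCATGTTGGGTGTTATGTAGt
Ccl12, chr11:82101595-82101894, plus strand: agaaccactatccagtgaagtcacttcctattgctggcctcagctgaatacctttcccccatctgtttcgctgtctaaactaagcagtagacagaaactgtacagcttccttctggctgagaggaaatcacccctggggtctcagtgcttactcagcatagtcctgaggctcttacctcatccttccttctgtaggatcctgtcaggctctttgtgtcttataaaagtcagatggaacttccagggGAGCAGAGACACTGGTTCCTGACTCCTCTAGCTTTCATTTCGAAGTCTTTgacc
Ccl8, chr11:82114935-82115234, plus strand: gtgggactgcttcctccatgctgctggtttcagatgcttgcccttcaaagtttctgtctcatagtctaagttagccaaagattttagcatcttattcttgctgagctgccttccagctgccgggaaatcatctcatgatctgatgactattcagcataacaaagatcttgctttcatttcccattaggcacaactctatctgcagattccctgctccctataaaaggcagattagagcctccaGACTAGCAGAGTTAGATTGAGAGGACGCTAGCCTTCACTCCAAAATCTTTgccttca

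In the capitals, Ccl6 and Ccl9 were identical at 38 of 50 bases (76%), and Ccl8 and Ccl12 at 28 of 50 (56%). The other 8 pairs of the 5 promoters reached 50% to 54% in their best stretch. On either strand, a TATAAA match lies 31 bases before the start in Ccl12 and 32 before it in Ccl8, a motif held by 13.6% of the 32851 promoters of the table. Ccl9 has 3 TATAAA matches, of which 2 overlap, and the nearest begins 92 bases before its start. Ccl9 alone of the 5 has a match to the NF-κB motif (held by 4.51% of promoters) and one to the AP-1 motif TGANTCA (7.81%), and 1 of its 2 matches to the C/EBP motif TTNNGNAA (40.7%) overlaps the NF-κB match. The PU.1 core GAGGAA (28.3%) has 1 match each in Ccl3, Ccl8 and Ccl12, and Ccl3 also has 1 C/EBP match. Ccl6 has no match to any of these motifs, and none of the 5 holds the motif TTCNNNGAA (8.3%). A match is a run of letters and does not show that a protein binds there.

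The checks of the samples bear on every comparison below. Recovered reads per library, over 50522 genes whose values came out as whole reads, lay between 17014621 and 23463818. In tamoxifen 1, 2 and 3, Manf, the gene to be deleted, had 18.1, 42.5 and 38.0 FPKM, against 29.5, 33.0 and 31.4 FPKM in oil 1, 2 and 3. It was below oil in 1 tamoxifen library and above it in 2, and without tamoxifen 1 it was higher (log2 fold change 0.353, limma-trend adjusted p = 0.0214). These are levels of the whole gene, which cannot be split by exon here. The libraries are therefore named by their labels. Cx3cr1, the source of the Cre promoter, had 31.3, 9.82 and 24.6 FPKM in the tamoxifen libraries, against 51.7, 42.7 and 51.0 FPKM in oil 1, 2 and 3. The sort markers Adgre1 (F4/80; 329 ± 35.1 FPKM with tamoxifen and 353 ± 27.8 FPKM in oil, SD, n = 3 each) and Ptprc (CD45; 39.0 ± 6.88 and 50.7 ± 3.60 FPKM) were present in all 6 libraries.

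The family as a whole was more abundant in every library labelled tamoxifen. The summed FPKM of the 10 genes was 1337, 2942 and 2126 in tamoxifen 1, 2 and 3, against 784, 983 and 981 in oil 1, 2 and 3. This sum followed 5 genes, Ccl2, Ccl7, Ccl12, Ccl6 and Ccl9, while the mean tamoxifen levels of Ccl3, Ccl4, Ccl5, Ccl8 and Ccl24 were between 0.779 and 1.27 times their mean oil levels. In bulk RNA, more cells that express a gene and more RNA per cell cannot be told apart.

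**Figure D1:**
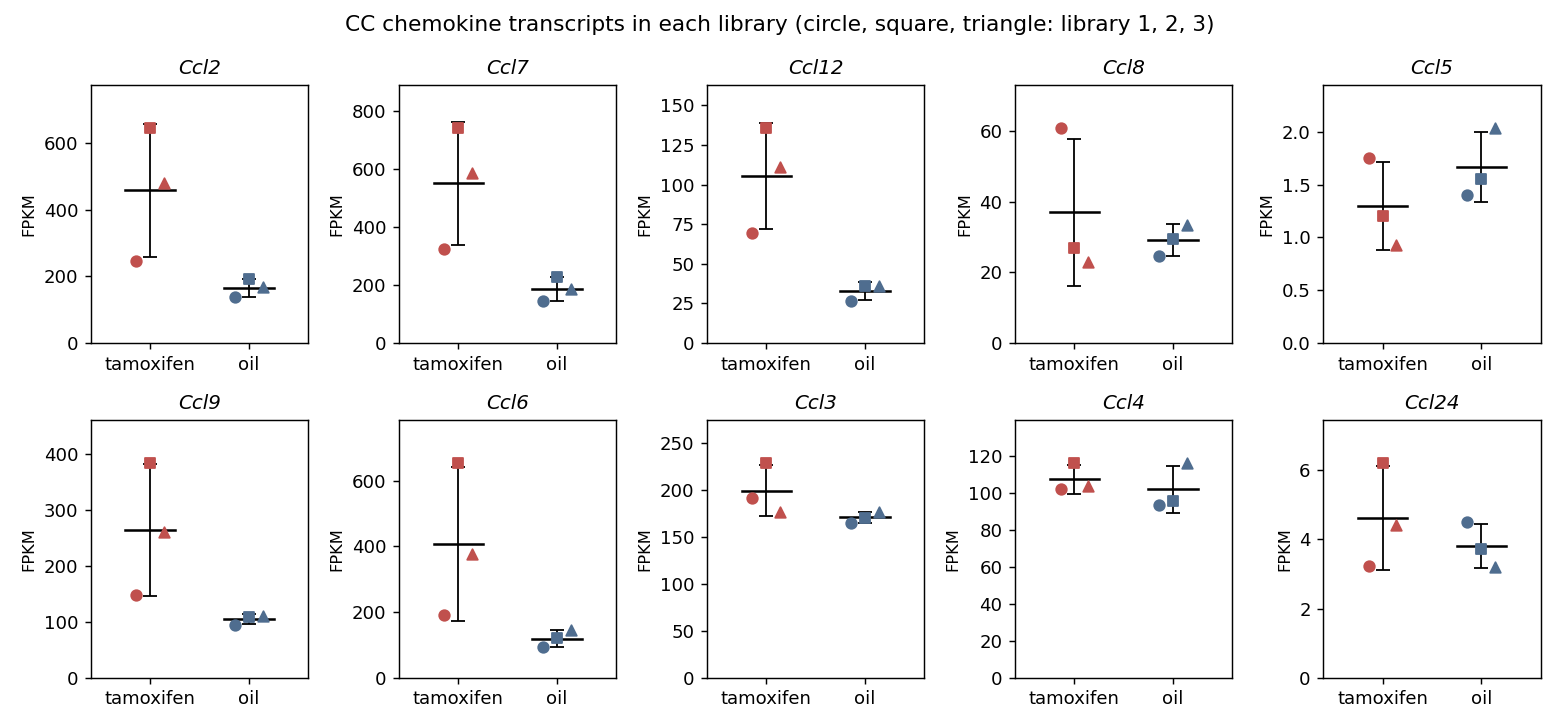
FPKM of each CC chemokine (vertical axes, each from 0) in the 3 tamoxifen libraries (left) and the 3 oil libraries (right) of each panel; points are libraries, and bars are the mean ± SD. In Ccl2, Ccl7, Ccl12, Ccl9 and Ccl6 the tamoxifen points lie above all oil points, with tamoxifen 1 the lowest of the 3, whereas in Ccl8 tamoxifen 1 is the only point far above oil, at 60.9 FPKM.

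Across all genes the fit was limma-trend on log2(FPKM + 1), with two-sided p-values adjusted by the Benjamini-Hochberg method over 10920 genes and a threshold of 0.05. It called 0 genes higher and 0 lower with tamoxifen (percent called 0 in each direction), and thus 0 of the 10 chemokines. At an unadjusted p under 0.05, 5 of the 10 chemokines were higher, where 13.2% of all genes were, and 0 were lower, where 11.7% were. Limma-voom on the recovered reads gave the same 5 and 0, with 13.2% of all genes higher and 12.7% lower at that level. All 3 tamoxifen libraries lay above all 3 oil libraries in 6 of the 10 chemokines and in 16.2% of all genes, and below them in 0 of the 10 and in 13.8% of all genes. The median log2 fold change was 0.72 over the 10 chemokines and 0.02 over all genes, with 9 of 10 above 0 where 53.7% of all genes were.

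The Ccr2 ligands Ccl2, Ccl7 and Ccl12 had like patterns. Ccl7 was at 324, 742 and 587 FPKM in tamoxifen 1, 2 and 3, against 145, 227 and 188 FPKM in oil 1, 2 and 3. The groups did not overlap, and the lowest tamoxifen library stood clearly above the highest oil library. Its group means had a ratio of 2.95, and its log2 fold change was 1.5 (SE 0.32, limma-trend adjusted p = 0.147).

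Ccl2, the ligand best known for calling monocytes into injured tissue, was at 247, 645 and 482 FPKM in the tamoxifen libraries and at 137, 191 and 168 FPKM in the oil libraries. The groups did not overlap, and tamoxifen 1 was nearer to oil than the other two were. Its log2 fold change was 1.37 (SE 0.34, limma-trend adjusted p = 0.148).

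Ccl12, a mouse Ccr2 ligand, was at 69.2, 136 and 111 FPKM with tamoxifen and at 26.4, 36.2 and 36.2 FPKM in oil. Here even tamoxifen 1 was well clear of all oil values. On the log2 scale the difference was 1.61 (SE 0.25, limma-trend adjusted p = 0.147), and its unadjusted p of 0.00043 ranked 17 among 10920 genes, the highest rank of the 10 chemokines.

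Ccl7 and Ccl2 kept close to a fixed ratio in all libraries. Ccl7 was 1.31, 1.15 and 1.22 times Ccl2 in tamoxifen 1, 2 and 3 and 1.06, 1.19 and 1.11 times Ccl2 in oil, per length of exon. Ccl12 was 0.28, 0.21 and 0.231 times Ccl2 with tamoxifen and 0.193, 0.189 and 0.215 times Ccl2 in oil. The 3 transcripts thus differed in level but moved in step, and the ratios in tamoxifen 1 were the highest of both series.

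Ccl8 lies 11.8 kb from Ccl12 in that cluster and did not follow it. Ccl8 was at 60.9, 27.0 and 22.9 FPKM in tamoxifen 1, 2 and 3, against 24.6, 29.5 and 33.4 FPKM in oil 1, 2 and 3. Tamoxifen 1 held the highest value and tamoxifen 3 the lowest of the 6 libraries, so the groups overlapped. The log2 fold change was 0.21 (SE 0.34, limma-trend adjusted p = 0.714), and without tamoxifen 1 it was -0.21 (adjusted p = 0.286).

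The ratio of Ccl8 to Ccl2 shows how far the neighbours came apart. It was 0.246, 0.0418 and 0.0476 in tamoxifen 1, 2 and 3 and 0.18, 0.154 and 0.198 in oil. In tamoxifen 1 both genes stood above oil, and in tamoxifen 2 and 3 Ccl2 alone did. Ccl11, which lies between Ccl7 and Ccl12 and codes for an attractant of eosinophils, was below the filter, at 0.671, 1.38 and 1.14 FPKM with tamoxifen and 0.747, 0.997 and 0.47 FPKM in oil.

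**Figure D2:**
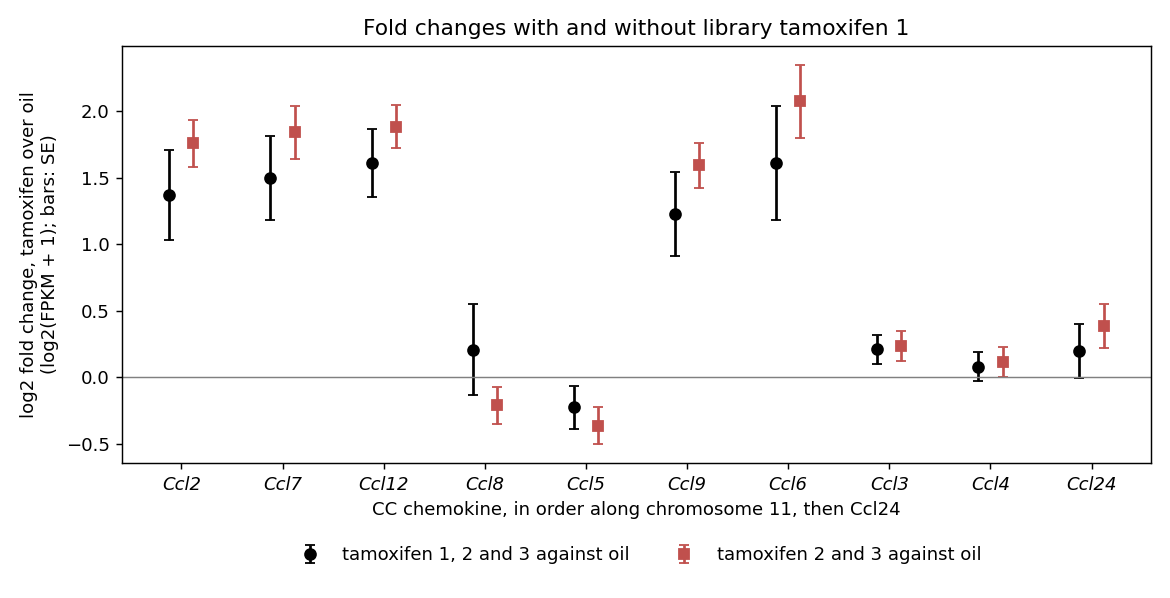
Log2 fold change of tamoxifen over oil on the log2(FPKM + 1) scale (vertical axis; bars are SE) for the 10 CC chemokines in chromosomal order, with all tamoxifen libraries (black circles) and without tamoxifen 1 (red squares). Ccl2, Ccl7, Ccl12, Ccl9 and Ccl6 lie between 1.23 and 1.61 with all libraries and between 1.59 and 2.07 without tamoxifen 1, and the other 5 lie between -0.361 and 0.386 in both.

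The Ccr1 ligands Ccl6 and Ccl9, rodent chemokines made constitutively by many myeloid cells, also lay above oil in every tamoxifen library, but with unequal steps. Ccl6 was at 189, 654 and 376 FPKM in tamoxifen 1, 2 and 3, against 92.2, 119 and 146 FPKM in oil 1, 2 and 3. It had the widest spread of the 10 among tamoxifen libraries, where the highest value was 3.46 times the lowest. The log2 fold change was 1.61 (SE 0.43, limma-trend adjusted p = 0.149).

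Ccl9 was at 148, 385 and 260 FPKM with tamoxifen and at 94.3, 108 and 111 FPKM in oil. The oil libraries lay close together, within a factor of 1.18, and the tamoxifen libraries all lay above them. The log2 fold change was 1.23 (SE 0.32, limma-trend adjusted p = 0.148). Ccl9 was 0.784, 0.588 and 0.692 times Ccl6 with tamoxifen and 1.02, 0.905 and 0.76 times Ccl6 in oil.

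The neighbours Ccl3 and Ccl4, which activated macrophages secrete in large amounts, stayed almost level. Ccl3 was at 192, 229 and 177 FPKM in tamoxifen 1, 2 and 3, against 165, 170 and 177 FPKM in oil 1, 2 and 3. Tamoxifen 3 and oil 3, at 176.9 and 176.6 FPKM, were only just on different sides, and Ccl3 is the gene counted as not overlapping with an unadjusted p above 0.05 (log2 fold change 0.21, SE 0.11, limma-trend adjusted p = 0.257).

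Ccl4 was at 102, 116 and 104 FPKM with tamoxifen and at 93.5, 95.7 and 116 FPKM in oil. The groups overlapped over most of their range. Its log2 fold change was 0.08 (SE 0.11, limma-trend adjusted p = 0.653).

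Ccl5, a typical product of T and NK cells, was close to the filter in all libraries. It was at 1.75, 1.21 and 0.93 FPKM with tamoxifen and at 1.404, 1.55 and 2.04 FPKM in oil, from 21 to 50 reads per library. Its log2 fold change was -0.22 (SE 0.16, limma-trend adjusted p = 0.401), the only one below 0 among the 10. The 95% exact Poisson interval, which covers counting error only, ran from 0.58 to 1.42 FPKM in tamoxifen 3, the lowest library, and from 1.51 to 2.69 FPKM in oil 3, the highest, while the intervals of tamoxifen 1 (1.23 to 2.41 FPKM) and oil 1 (0.91 to 2.07 FPKM) overlapped.

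Ccl24, an eosinophil attractant that alternatively activated macrophages make, was at 3.23, 6.22 and 4.41 FPKM in the tamoxifen libraries and at 4.50, 3.73 and 3.20 FPKM in the oil libraries. Tamoxifen 2 was highest, and tamoxifen 1 was as low as oil 3. The log2 fold change was 0.20 (SE 0.20, limma-trend adjusted p = 0.545), and without tamoxifen 2 it was 0.00.

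**Figure D3:**
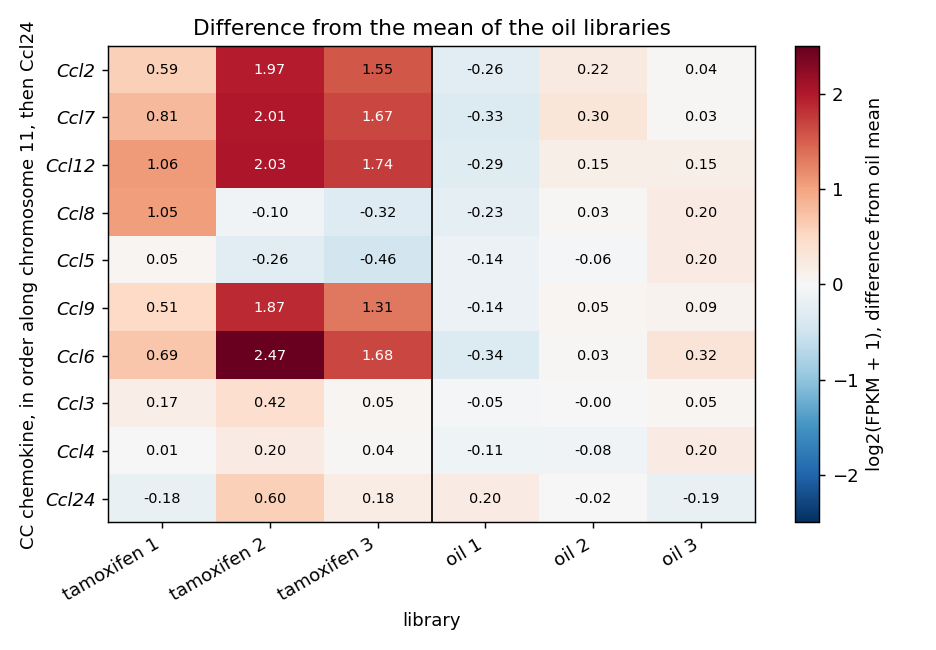
Difference of each library (columns, tamoxifen left of the line and oil right) from the mean of the oil libraries on the log2(FPKM + 1) scale for each CC chemokine (rows, chromosomal order). Ccl2, Ccl7, Ccl12, Ccl9 and Ccl6 show 0.51 to 1.06 in tamoxifen 1 and 1.31 to 2.47 in tamoxifen 2 and 3, and Ccl8 shows 1.05, -0.10 and -0.32.

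The calls turned on the library labelled tamoxifen 1 and on the model. Without tamoxifen 1, limma-trend called 5 of the 10 chemokines higher, where 17.4% of all genes were called higher, and 0 lower, where 14.5% were. The adjusted p was 0.00277 for Ccl2, 0.00304 for Ccl7, 0.00245 for Ccl12, 0.00493 for Ccl6 and 0.00297 for Ccl9, with log2 fold changes of 1.76, 1.84, 1.88, 2.07 and 1.59. Leaving out any other single library left 0 of the 10 called. Library quality weights were 0.199, 0.525 and 3.77 for tamoxifen 1, 2 and 3, so the weighted tamoxifen group rested mostly on tamoxifen 3. With them limma-trend called the same 5 higher (24.8% of all genes). It called Ccl5 lower (log2 fold change -0.40, adjusted p = 0.0252), where 18.7% of all genes were. Within the full set, these 5 genes had the ranks 24 (Ccl6), 26 (Ccl12), 31 (Ccl7), 37 (Ccl2) and 42 (Ccl9) by fold change among 10920 genes, but Ccl6, Ccl9 and Ccl2 only the ranks 530, 454 and 382 by p.

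The make-up of the family differed along with its level. Ccl7 held 24.2%, 25.2% and 27.6% of the summed FPKM of the 10 genes in tamoxifen 1, 2 and 3, against 18.5%, 23.1% and 19.1% in oil. Ccl2 held 18.5%, 21.9% and 22.7% with tamoxifen and 17.4%, 19.5% and 17.2% in oil. Ccl3 held 14.3%, 7.79% and 8.32% with tamoxifen and 21.1%, 17.4% and 18.0% in oil, so every tamoxifen library lay below every oil library in its share although not in its level.

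Ccl4 likewise held 7.62%, 3.95% and 4.88% with tamoxifen and 11.9%, 9.74% and 11.9% in oil. Ccl9 kept almost the same share, 12.1% ± 0.99 with tamoxifen and 11.4% ± 0.53 in oil (SD, n = 3 each). With tamoxifen the order of mean level per length was Ccl7, Ccl2, Ccl6, Ccl9, Ccl3, Ccl4, Ccl12, Ccl8, Ccl24 and Ccl5, and only Ccl4, Ccl8, Ccl24 and Ccl5 did not overlap with the gene before them. In oil it was Ccl7, Ccl3, Ccl2, Ccl6, Ccl9, Ccl4, Ccl12, Ccl8, Ccl24 and Ccl5, and only Ccl12, Ccl24 and Ccl5 did not. Shares and order depend on the exon length used. For Ccl2 it was 1138 bases, though 1 annotated transcript has 813, and for Ccl7 both are 801.

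**Figure D4:**
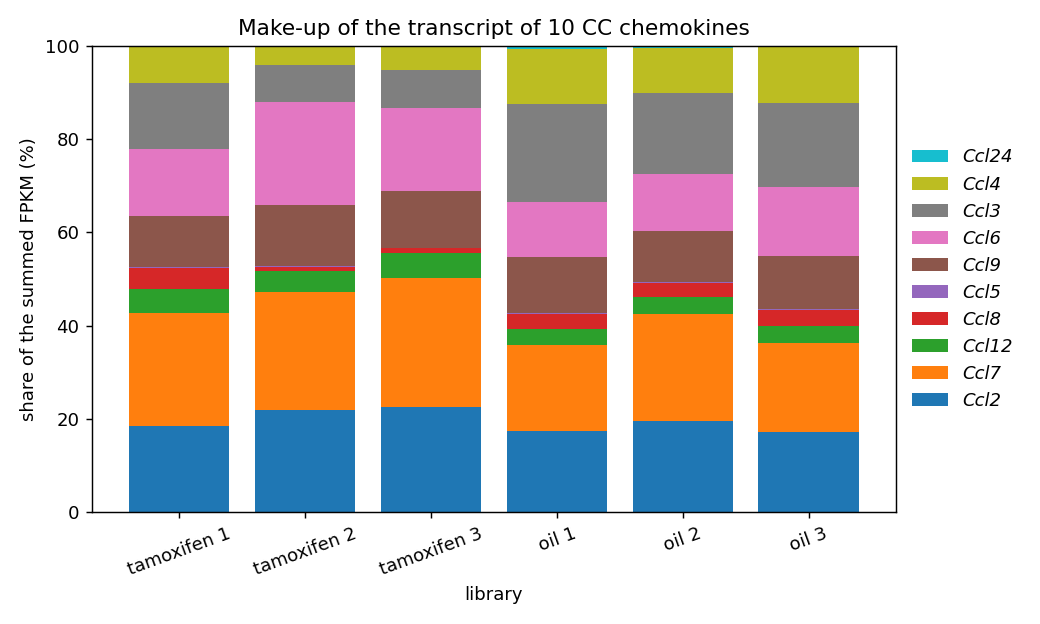
Share of each CC chemokine in the summed FPKM of the 10 genes (vertical axis, percent) in each library, tamoxifen left and oil right. The shares of Ccl3 and Ccl4 are smaller in the tamoxifen bars, together most so in tamoxifen 2, and those of Ccl2, Ccl7 and Ccl6 larger in tamoxifen 2 and 3.

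Likeness of pattern was measured by the root mean square (RMS) difference of the log2(FPKM + 1) profiles over the 6 libraries, each centred on its mean, so that 0 means the same pattern. The difference between tamoxifen and oil is part of this measure. Of the 45 pairs among the 10 chemokines, Ccl2 and Ccl7 were the closest (0.096), followed by Ccl3 and Ccl4 (0.12), Ccl7 and Ccl12 (0.12) and Ccl2 and Ccl9 (0.12). Ccl6 and Ccl8 were the farthest apart (1.14). Of the 5 closest pairs 4 lay within 1 cluster. They were the pairs among Ccl2, Ccl7 and Ccl12, and Ccl3 with Ccl4, which both varied little. Whether position goes with pattern was not tested. Ccl9, however, was nearer to Ccl2 in the other cluster than to its neighbour Ccl6 (0.26), the least alike pair among the 5 genes above oil, and Ccl12 was farther from its neighbour Ccl8 (0.99) than from Ccl6 (0.25).

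**Figure D5:**
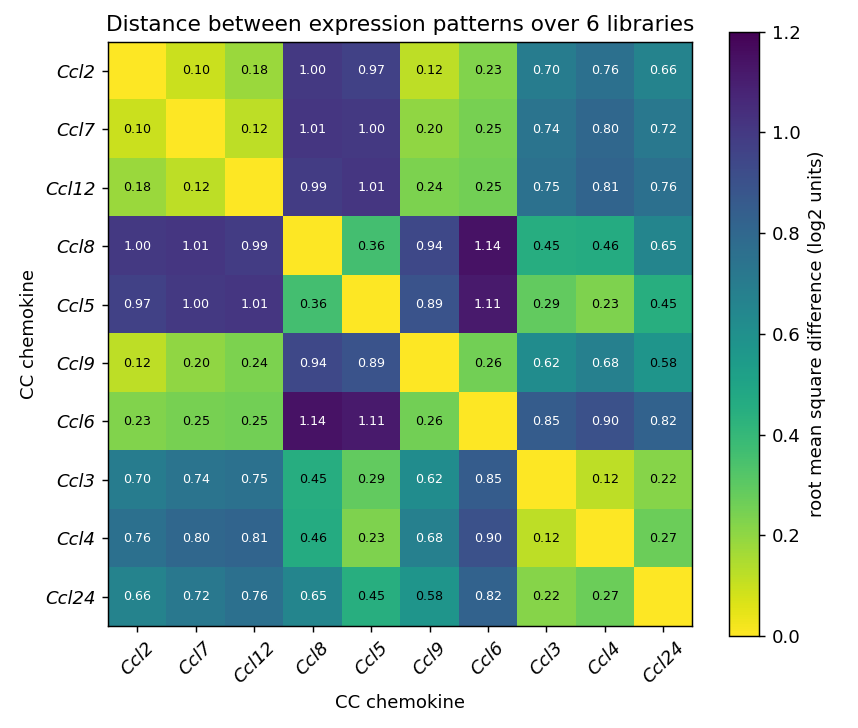
RMS difference (colour and numbers, log2 units) between the centred expression patterns of each pair of CC chemokines over the 6 libraries. Ccl2, Ccl7, Ccl12, Ccl9 and Ccl6 lie within 0.26 of each other and at least 0.58 from the other 5. Their distance from the other 5 includes the difference between tamoxifen and oil by which they were set apart, so it is no separate result.

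Among 4086 protein-coding genes with an overall mean of 10 FPKM or more, the 3 nearest to Ccl2 were Ccl7, Ccl9 and Gda (RMS 0.096, 0.12 and 0.13). Gda, guanine deaminase, was also among the nearest to Ccl7, Ccl12 and Ccl6. Ccl6 was nearest to Clec4e, Gda and Fn1 (0.11, 0.14 and 0.15), and Ccl9 to Bst1, F13a1 and C3 (0.069, 0.12 and 0.12). Ccl8 was nearest to Siglec1, Irf7 and Cd200r4 (0.19, 0.20 and 0.25), the least close neighbours of the 10.

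Ccl3 was near to Mindy1 and Btaf1, Ccl4 nearest to Patl1, Sbno2 and Rhbdf2, and Ccl5 to Dgat1, Ulk1 and Gab2, with RMS differences of 0.0272 to 0.0705. Ccl24 was nearest to Tmem208, Cd86 and Ier3 (0.107 to 0.112). A small difference is easily reached by genes that vary little. The pattern of Ccl5 rests on 21 to 50 reads per library, with a counting error of 14.1% to 21.8%, and the added 1 FPKM narrows it.

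The 3′ untranslated ends of chemokine mRNAs are known to hold AU-rich elements that shorten their life, and the pentamer ATTTA was counted there in 1 annotated transcript per gene. Ccl12 had 5 in 167 bases and Ccl3 5 in 409 bases, densities above those of 99.9% and 99% of 19906 genes. Ccl4 and Ccl7 had 2 each, Ccl2 1, Ccl6 4 and Ccl9 5, the last in an end of 2465 bases. Ccl5, Ccl8 and Ccl24 had 0. The count did not separate the 5 genes with high tamoxifen values from the others, since Ccl3 and Ccl4 had more per 100 bases (1.22 and 0.662) than Ccl7 (0.46).

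Among the receptors, 5 of the 14 listed genes passed the filter, 0 passed over all genes, and 2 were higher and 1 lower at an unadjusted p under 0.05, where 13.2% and 11.7% of all genes were. Ccr1, the receptor for Ccl6, Ccl9 and Ccl3, was at 25.2, 65.5 and 42.9 FPKM in tamoxifen 1, 2 and 3, against 19.98, 20.04 and 23.6 FPKM in oil (log2 fold change 0.94, SE 0.31, limma-trend adjusted p = 0.157). Its tamoxifen libraries stood in the same order as those of Ccl6 and Ccl9, an order also seen for Manf. Ccr2, the receptor for Ccl2, Ccl7 and Ccl12, was at 56.8, 66.9 and 58.3 FPKM with tamoxifen and 45.4, 46.7 and 53.9 FPKM in oil (log2 fold change 0.31, SE 0.10, limma-trend adjusted p = 0.157).

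Of the 5 measured receptors, Ccr1 and Ccr2 lay above oil without overlap, where 16.2% of all genes did. Ccr7 lay below oil without overlap, where 13.8% did. Without tamoxifen 1, Ccr1 and Ccr2 passed (log2 fold changes 1.29 and 0.357, limma-trend adjusted p = 0.00558 and 0.0398), where 17.4% of all genes were called higher. Without tamoxifen 2 the log2 fold changes of Ccr1 and Ccr2 were 0.614 and 0.241 (limma-trend adjusted p = 0.362 and 0.38). Ccr7, which guides dendritic cells to lymph nodes, was at 1.29 ± 0.49 FPKM with tamoxifen and 2.502 ± 1.18 FPKM in oil (SD, n = 3 each), just without overlap, and Ccrl2, an atypical receptor, at 34.9 ± 4.05 and 49.6 ± 11.5 FPKM. Ccr8, the receptor of mouse Ccl8, was listed at 0 in all 6 libraries, and Ccr3 lay between 0.612 and 0.955 FPKM.

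Signalling genes downstream of these receptors did not move one way as a list. Of 19 listed and measured, 0 passed over all genes, 3 were higher and 1 lower at an unadjusted p under 0.05 (13.2% and 11.7% of all genes), and the median log2 fold change was 0.01. Dock2, a Rac activator needed for leukocyte migration, had a log2 fold change of 0.30 and the G protein subunits Gnb1 and Gnai3 of 0.25 and 0.26, with limma-trend adjusted p of 0.148, 0.163 and 0.187. The receptor kinase Grk3 was at -0.996 and the regulator of G protein signalling Rgs1 at -0.29 (adjusted p = 0.167 and 0.262). Without tamoxifen 1, Dock2, Gnb1 and Gnai3 passed as higher and Grk3 as lower (limma-trend adjusted p = 0.0243, 0.0112, 0.0107 and 0.00542). In that fit 17.4% of all genes were called higher and 14.5% lower. Without tamoxifen 2, Dock2, Gnb1, Gnai3 and Grk3 were at 0.286, 0.199, 0.178 and -0.644 (limma-trend adjusted p = 0.353, 0.393, 0.438 and 0.381).

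The list of inducers and brakes of chemokine transcription showed no shift one way. Because it mixes both kinds, its median cannot show whether the inducers alone followed the chemokines. Of 27 genes 25 were measured, 0 passed over all genes, 2 were higher and 1 lower at an unadjusted p under 0.05 (13.2% and 11.7% of all genes), and the median log2 fold change was -0.02. Tnf, an inducer of Ccl2, was at 135, 226 and 179 FPKM with tamoxifen and 135, 115 and 130 FPKM in oil (log2 fold change 0.48, SE 0.18, limma-trend adjusted p = 0.182). The log2 fold changes of Klf4, Fos, Zfp36l1 and Stat6 were 0.37, -0.35, -0.25 and 0.16 (adjusted p = 0.158, 0.2, 0.209 and 0.211). Without tamoxifen 1, Tnf passed as higher and Fos as lower (limma-trend adjusted p = 0.0103 and 0.02). In that fit 17.4% and 14.5% of all genes were called higher and lower. Without tamoxifen 2, Tnf was at 0.298 and Fos at -0.331 (limma-trend adjusted p = 0.41 and 0.428). Of 11 other CC chemokines 2, Ccl19 and Ccl21a, were not matched by name to 1 line, and of the other 9 only Ccl22 passed the filter, at 0.82, 1.04 and 1.28 FPKM with tamoxifen and 0.77, 0.55 and 1.62 FPKM in oil.

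Some markers of other cells also differed between libraries. Of the 10 neutrophil markers 7 passed the filter. The summed level of the list was 49.9, 358 and 105 FPKM in tamoxifen 1, 2 and 3, against 43.1 to 47.6 FPKM in oil. The tamoxifen libraries stood in the same order as for Ccl2, Ccl6 and Ccl9, an order also seen for Manf and Ccl24. S100a8 was at 4.12, 154 and 40.4 FPKM and S100a9 at 0.70, 120 and 25.5 FPKM there, while the defining marker Ly6g was listed at 0 in every library except tamoxifen 2 (0.18 FPKM). Of the 7, S100a8, Lcn2 and Mmp8 lay above oil in all 3 tamoxifen libraries, where 16.2% of all genes did, and S100a9 overlapped. Lcn2 (log2 fold change 2.76) was at 0.363, 33.6 and 8.59 FPKM with tamoxifen and 0.0746 to 0.196 FPKM in oil. It thus passed the filter only through tamoxifen 2 and 3. The log2 fold change of Mmp8 was 0.74. Csf3r, by contrast, was at 30.3, 15.2 and 14.6 FPKM with tamoxifen and 27.3 to 28.7 FPKM in oil. The log2 fold changes of the remaining members past the filter, Mpo and Retnlg, were -0.20 and 0.03. The part of neutrophils in the chemokine values was not tested.

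Of 6 eosinophil markers 1 passed, Ear2 (7.51, 20.6 and 13.98 FPKM with tamoxifen, 5.77, 5.22 and 8.66 FPKM in oil), and Ear6 was listed at 0 throughout. The 9 T and NK cell markers, relevant to Ccl5, summed to 1.89 to 3.00 FPKM with tamoxifen and 2.04 to 2.22 FPKM in oil, of which Cd2 was the only one past the filter, and Ncr1 and Gzma were at 0 in all libraries. The 6 markers of fibro-adipogenic progenitors, stromal cells that can make Ccl2 and Ccl7, summed to 15.0, 36.1 and 27.9 FPKM with tamoxifen and 22.1 to 24.4 FPKM in oil, led by Col3a1 and Col1a1.

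Dendritic cell markers (2 of 7 past the filter, Cd209a and Batf3) summed to 3.03 to 5.87 FPKM with tamoxifen and 7.27 to 10.6 FPKM in oil, B cell markers (3 of 5, Ighm, Cd79b and Cd79a) to 9.23 to 24.02 and 29.6 to 36.0 FPKM, and muscle markers (2 of 6, Acta1 and Myog) to 1.55 to 3.21 and 4.83 to 9.45 FPKM. The B cell sum was carried by Ighm, and Cd79a lay the other way, at 1.37, 2.27 and 2.16 FPKM with tamoxifen and 1.21 to 1.33 FPKM in oil. Endothelial markers (3 of 4, led by Kdr and Pecam1) summed to 5.97 to 6.77 and 5.31 to 6.69 FPKM, and mast cell markers to at most 0.34 and 0.077 FPKM. The markers Itgam and Siglecf were not matched by name to 1 line. The macrophage markers themselves (7 of 8 past the filter, led by Lyz2 and Cd68) summed to 8515 to 9639 FPKM with tamoxifen and 10720 to 12410 FPKM in oil. That sum was carried by Lyz2, at 6774 to 7399 FPKM with tamoxifen and 8548 to 10193 FPKM in oil. Lyz2, Ptprc and Csf1r lay below oil without overlap, as 13.8% of all genes did. Csf1r was at 250 to 320 FPKM with tamoxifen and 386 to 446 FPKM in oil. Cd68, Adgre1 and Mertk overlapped between the groups, Mertk with a log2 fold change of -0.66. Fcgr1 lay the other way, at 150 to 164 FPKM with tamoxifen and 117 to 139 FPKM in oil. Of the 7, 1 had a log2 fold change above 0 and 6 below. At an unadjusted p under 0.05 in limma-trend, 1 was higher and 4 were lower (13.2% and 11.7% of all genes). The part of these cells in the chemokine values was not tested.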

How the data were processed

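The authors deposited 1 table of FPKM per gene and library, a unit read from its name and values. The submitters' processing notes name GRCm38.p6 as build. The sources used here do not give aligner, counter, strand setting or annotation. Of 54183 lines, 382 without a name and 27 with a date for a name were left out. The members and lists were chosen with earlier results of these data known.

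Reads were recovered as FPKM times the exon length of the gene (GENCODE M21) times 1 factor per library. That factor was itself fitted so that values came out as whole reads. The result was whole within 0.02 reads for 95% to 95.3% of values of up to 1000 reads. It was whole for all 10 members in all 6 libraries. Exon length counts retained introns, so levels between genes depend on it. The fit was limma-trend (limma 3.58.1, R 4.3.3) on log2(FPKM + 1), which understates the change of low genes, for lines with a mean of at least 1 FPKM. It was tested on simulated data. Named are the 10 members, Manf, Ptprc, Adgre1, Cx3cr1, up to 5 genes of each pathway list (those with the smallest p), the 2 most abundant markers of each list and the 3 nearest patterns. Of the genes this rule takes, 2 are not reported here. Genes outside this rule were named after their values were seen. They are Ccl11, Ccr3, Ccr8, Ly6g, Lcn2, Mmp8, Csf3r, Mpo, Retnlg, Cd79a, Fcgr1, Csf1r, Mertk, Ear6, Ncr1 and Gzma. Alternatives were other pseudocounts, filters, scalings and limma settings, the replicate number as a block, limma-voom on recovered reads, and each library left out. Promoters are from RefSeq (GRCm38.p6).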

Additional observations from a re-analysis of the deposited data

How the results depend on the processing

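Ccl2, Ccl7, Ccl12, Ccl6 and Ccl9 had a positive log2 fold change and an unadjusted p under 0.05 in all 18 alternatives. Of the 178 fold changes of the 10 chemokines under alternatives, 162 kept direction and side of the threshold and 13 newly passed it. The counts of called genes were 0 higher and 0 lower, and of called chemokines 0 and 0. With library quality weights they were 2704 higher and 2037 lower, with 5 chemokines higher and 1, Ccl5, lower. A filter at 5 FPKM gave 1 higher and 4 lower, and no filter gave 1 lower. Leaving out 1 library gave 0 to 1901 genes higher, 0 to 1583 lower and 0 to 5 chemokines higher, the non-zero values all from leaving out tamoxifen 1.

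The sources used here do not say whether the replicate numbers pair the libraries, and 3 libraries per group cannot settle it. Deviations of same-numbered libraries correlated at 0.261, 0.0884 and 0.00397 across genes. Those of libraries with unlike numbers correlated at -0.256 to 0.174. With the replicate block 11 genes were higher and 22 lower, and 2 chemokines, Ccl7 (adjusted p = 0.0346) and Ccl12 (adjusted p = 0.0245), were higher.

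Library weights turned the log2 fold changes of Ccl8 (-0.245), Col1a1 (0.103) and Manf (0.226). Leaving out 1 library gave -0.21 to 0.476 for Ccl8, -0.000261 to 0.386 for Ccl24, -0.0749 to 0.302 for Ccl22, -0.1 to 0.475 for Col3a1, -0.301 to 0.182 for Col1a1 and -0.241 to 0.353 for Manf. The cause was not tested. Depth limits Ccl5, with 21 to 50 reads per library.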
